A study of Homo sapiens with 6 samples.

Results

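Genes whose symbol starts with KCN encode the pore-forming and auxiliary subunits of potassium channels. The count files held 96 protein-coding KCN genes, of which 51 reached a sum of 10 counts over the 6 libraries and were kept as members, among 20536 genes of any kind that reached it. Of the other 45 genes, 21 were at 0 in every library and 24 had 1 to 9 counts. Members were placed in groups by symbol alone: 20 voltage-gated genes (KCNA to KCNH, with the KCNAB and KCNE auxiliary subunits), 11 other genes (KCNQ, KCNS, KCNT, KCNU, KCNIP and KCNRG), 8 inward rectifiers (KCNJ), 6 tandem-pore leak channels (KCNK) and 6 calcium-activated genes (KCNM and KCNN).

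Potassium channels let potassium ions pass down their gradient through the membrane and so pull the membrane voltage towards negative values. Voltage-gated channels open on depolarization, inward rectifiers and tandem-pore channels carry current near rest, and calcium-activated channels open when calcium rises in the cell. In glioma cells, channels of the calcium-activated class are known for their part in volume change and migration.

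The study overexpressed RBFOX1, an RNA-binding protein with the motif TGCATG (DNA letters), in A172, an established human glioblastoma cell line. Both groups were stable A172 lines made by lentiviral transduction, with pLX317-GFP as the control and pLX317-RBFOX1 as the test, and each group had 3 biological replicates. Only 1 cell line was used, RBFOX1 was expressed from the vector, and GFP cells carried the same vector type. The question the comparison addresses is which transcripts differ in level when RBFOX1 is present. Counts are gene-level read counts of total RNA, given below as normalized counts (counts scaled by edgeR's TMM effective library sizes to the mean size), always in the order of replicates 1, 2 and 3, and changes are RBFOX1 relative to GFP cells.

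The libraries held 7433414 to 23249221 counts on genes. RBFOX1 itself had 4, 0 and 1 counts in the GFP libraries and 10276, 16467 and 21451 in the RBFOX1 libraries, a log2 fold change of 13.55 (SE 0.13, edgeR adjusted p = 2.47e-23). Among 8 glial and glioma markers, VIM, CD44, NES and EGFR had at least 2097 normalized counts in every library, whereas GFAP did not exceed 3.50 and S100B 2.22. The summed normalized count of the 8 ranged from 78734 to 80041 in GFP and from 52761 to 53325 in RBFOX1 libraries, and VIM and CD44 make up most of it. By gene, VIM (log2 fold change -0.65), CD44 (-0.90) and OLIG2 (-0.50) were lower and NES (0.60) and SOX2 (2.53) higher, all past the threshold. Sums over neuronal markers (5 genes) were 169 to 178 against 196 to 239, over immune markers (3 genes, CD3E at 0) 12.8 to 25.5 against 52.6 to 68.5, and over endothelial markers (3 genes) 10.3 to 12.8 against 95.9 to 109. The immune sum rose through PTPRC (log2 fold change 1.82), while CD68 did not pass (-0.12). The neuronal markers moved both ways, with GAD1 lower (-0.47) and STMN2 (5.34) and SYP (1.59) higher. RBFOX3 and SNAP25, with 8 and 5 counts summed over all libraries, were too low to be tested. The part of all these markers in the results below was not tested. In such bulk RNA, fewer cells with a transcript and less of it per cell cannot be told apart.

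Potassium channel genes moved in both directions. Of the 51 members, 18 were higher and 10 lower in RBFOX1 cells and 23 did not pass the threshold (edgeR adjusted p under 0.05), so that 54.9% passed, against 46.6% of all genes tested and 59.1% of the protein-coding genes tested. For the higher calls, the backgrounds were 23.7% of all genes and 30.3% of protein-coding genes, and for the lower calls 22.9% and 28.8%. The share that passed lay between those of all and of protein-coding genes. In 29 members (19 above, 10 below) the values of the groups did not overlap, against 53.4% of all genes and 64.6% of protein-coding genes tested. The median log2 fold change over the members was 0.48, against 0.01 over all genes and 0.02 over protein-coding genes. Setting the 3 genes at 0 in GFP to their bound cannot move the member median, since each bound also lies above it. Without RBFOX1 replicate 3 the member median was 0.22, and under edgeR's stricter filterByExpr, which removes low genes, it was -0.13.

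The members were next divided by level. Among the 19 members whose normalized counts averaged at least 20 over all libraries, 7 were higher and 8 lower, 7 lay wholly above and 8 wholly below without overlap, and their median log2 fold change was -0.25, where 61.0% of all genes at that level passed, 29.5% higher and 31.5% lower, 66.1% had no overlap and the median was -0.02. Among the 32 members below 20, 11 were higher and 2 lower, 12 lay wholly above and 2 wholly below without overlap, and the median was 0.70. Of all genes at that level, 17.9% passed (12.1% higher, 5.81% lower), 27.9% had no overlap and the median was 0.09. Because a gene enters the list through its summed count, a member with few GFP counts had to be high in RBFOX1 cells. There were 9 members with fewer than 5 counts summed over the GFP libraries, and all 9 were called higher, so that part of the count was fixed by the limit itself. A change of at least 2-fold past the threshold was seen in 20 members (16 higher, 4 lower), against 12.7% of all genes and 13.8% of protein-coding genes. The 16 include the same 9 members, so that part of this count too was fixed by the limit and its excess cannot be read as a result. Within the 19 better-measured members such a change was seen in 7 (36.8%), against 10.9% of all genes at that level. Of these 7, KCNA2 reached a mean of 20 only through its RBFOX1 libraries (mean 54.1, against 4.25 in GFP). Part of this share too was therefore set by its limit.

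**Figure D1:**
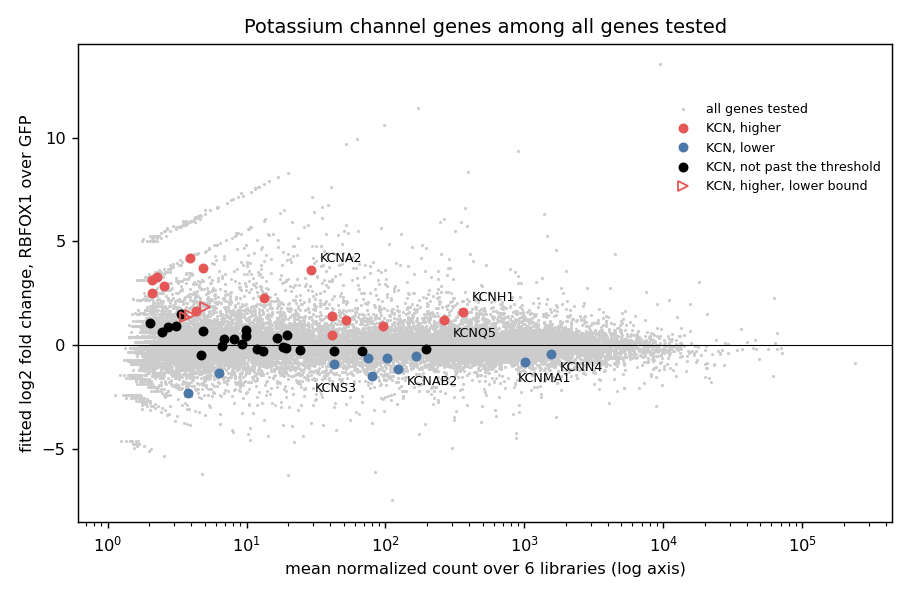
Mean normalized count over the 6 libraries (x axis, log scale) against the fitted log2 fold change of RBFOX1 over GFP (y axis), with 1 grey point for each of the 20536 genes tested and coloured points for the 51 potassium channel genes. The 3 open triangles are KCNC1, KCNJ13 and KCNIP1, which had no GFP count and stand at their lower bound. Most of the large positive changes lie below a mean of 20, and KCNA2, KCNH1 and KCNQ5 are the labelled rises above it.

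The level of a channel gene was compared between genes as the normalized count per kb of merged exons. KCNN4, the intermediate-conductance calcium-activated channel, ranked first in both groups, with a mean level per kb of 569 (range 552 to 593) in GFP and 423 (range 419.9 to 427) in RBFOX1 cells. In GFP cells the next genes were KCNG1 at 38.6 (range 36.4 to 42.9), KCNS3 at 37.7 (range 31.0 to 42.8) and KCNMA1 at 32.3 (range 29.6 to 34.2) per kb, whose ranges overlapped between neighbours. In RBFOX1 cells the next level per kb was that of KCNH1 at 42.2 (range 38.0 to 46.9), followed by KCNG1 at 33.7 (range 30.8 to 36.9) and KCNQ5 at 32.6 (range 30.5 to 34.9), the last pair overlapping. In GFP cells KCNH1 had rank 9 and KCNQ5 rank 8. The order depends on the length used: with the canonical transcript in place of merged exons, a choice made after seeing the data, KCNMA1 had rank 2 in both groups (204 and 117 per kb) and KCNH1 had rank 4 in RBFOX1 cells.

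Counts on the 51 genes were divided differently between the channel groups. Calcium-activated genes took 65.6 to 66.6% of these counts in the GFP libraries and 50.0 to 52.1% in the RBFOX1 libraries, and voltage-gated genes took 18.0 to 18.9% and 29.1 to 30.5%. Neither pair of ranges overlapped. By gene, KCNN4 held 35.3 to 39.1% against 29.4 to 31.1%, KCNMA1 24.7 to 27.2% against 16.6 to 17.1%, KCNH1 3.39 to 3.93% against 11.4 to 13.6%, and KCNQ5 3.03 to 3.48% against 8.07 to 8.88%. The summed normalized count of the 51 genes was 4728 to 4967 in GFP and 4277 to 4455 in RBFOX1 libraries. These shares are descriptions, and long genes weigh more in them.

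**Figure D2:**
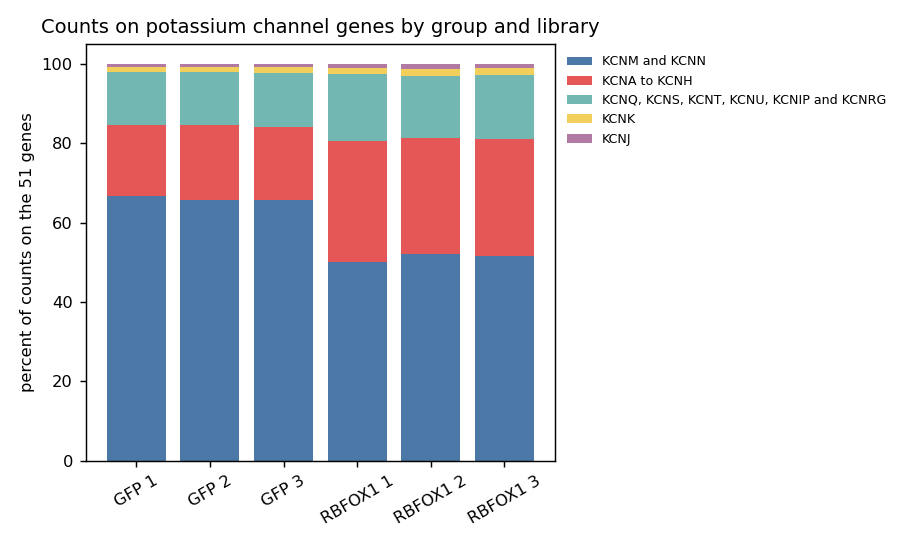
Percent of all counts on the 51 potassium channel genes (y axis) taken by each channel group, with 1 stacked bar per library. The calcium-activated genes (bottom segment) take 65.6 to 66.6% of the GFP bars and 50.0 to 52.1% of the RBFOX1 bars, and the voltage-gated genes above them 18.0 to 18.9% and 29.1 to 30.5%.

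To place the RBFOX1 motif beside the values, TGCATG was searched on the transcribed strand of each member's canonical 3′ UTR (GENCODE release 44, GRCh38). The members past the threshold with a mean of at least 20 and no overlap between groups are given first. Of the 7 that rose, KCNA2, KCNH1, KCND1, KCNH3, KCNQ5 and KCNMB4 had a match and KCNG3 had none. Of the 7 that fell, KCNMA1, KCNS3 and KCNIP3 had one while KCNN4, KCNT2, KCNAB2 and KCNH2 had none. The first match in each of these 9 UTRs is shown with 10 bases on either side, 5′ to 3′ on the transcribed strand, the motif in capitals, and coordinates are those of the motif. Letters are from the release's transcripts, the first 6 genes rose and the last 3 fell.
KCNA2 (chr1:110603177-110603182, minus strand, 3′ UTR of 9703 bases): tatctggttcTGCATGgaaagcaata
KCNH1 (chr1:210682674-210682679, minus strand, 3′ UTR of 4967 bases): gcaggtgtggTGCATGcctcccatag
KCND1 (chrX:48962278-48962283, minus strand, 3′ UTR of 1201 bases): gctggactccTGCATGctcctcccct
KCNH3 (chr12:49558235-49558240, plus strand, 3′ UTR of 384 bases): tgccatccccTGCATGtgcccctgcc
KCNQ5 (chr6:73195465-73195470, plus strand, 3′ UTR of 3439 bases): tacatatcatTGCATGaactatttcg
KCNMB4 (chr12:70432879-70432884, plus strand, 3′ UTR of 3639 bases): attagaatagTGCATGgatatacatt
KCNMA1 (chr10:76887120-76887125, minus strand, 3′ UTR of 2384 bases): tatgatagtgTGCATGtggttgtcat
KCNS3 (chr2:17932859-17932864, plus strand, 3′ UTR of 474 bases): tgagacgacaTGCATGtaagatccac
KCNIP3 (chr2:95384066-95384071, plus strand, 3′ UTR of 2028 bases): tccaaaggagTGCATGgccacagcca
KCNA2 held 6 matches, KCNQ5, KCNMA1 and KCNIP3 3 each, KCNH1, KCNMB4 and KCNS3 2 each, and KCND1 and KCNH3 1 each. KCNK1, with a mean of at least 20 and wholly below GFP but not past the threshold, also had 1 match. Over all members, 33 of 51 (64.7%) had at least 1 match, namely 14 of the 18 that were higher, 6 of the 10 that were lower and 13 of the 23 that did not pass. Among 14052 protein-coding genes tested with a 3′ UTR, 36.5% had a match. Member UTRs were longer, with a median of 1917 bases against 1298. Within the first 1000 bases of UTRs at least that long, 16 of 38 members (42.1%) and 26.2% of 8089 protein-coding genes had a match. A match is a run of letters and was not tested as a binding site.

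Among the voltage-gated genes, 8 were higher, 3 lower and 9 did not pass. The largest rise above a mean of 20 was that of KCNA2 (chr1:110519837-110631474, minus strand), a low-threshold delayed rectifier of axons. Its normalized counts were 3.64, 7.01 and 2.11 in GFP and 65.3, 52.2 and 44.7 in RBFOX1 libraries. All RBFOX1 values were several times the highest GFP value, with a log2 fold change of 3.65 (SE 0.32, edgeR adjusted p = 9.63e-09), although the GFP libraries held only 6, 6 and 2 counts. KCNH1 (chr1:210676823-211134165, minus strand), the ether-à-go-go channel that is expressed in brain and in many tumours, had 160.3, 189 and 189.6 normalized counts in GFP and 604, 534 and 489 in RBFOX1 libraries. It had the lowest adjusted p of the 51 genes, with a log2 fold change of 1.60 (SE 0.095, edgeR adjusted p = 2.42e-11) and no overlap. A processed pseudogene, IPO8P1, lies on the same strand within 15.7% of the exon length of KCNH1, and reads there may be lost as ambiguous. KCNH1 also shares 3.0% with a protein-coding gene on the same strand and 28.1% with an unconfirmed gene on the opposite strand. The effect of these overlaps was not tested.

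KCNH3 (chr12:49539030-49558337, plus strand), a forebrain member of the same family, had 65.6, 68.9 and 63.2 normalized counts in GFP and 118, 119 and 137 in RBFOX1 libraries, a log2 fold change of 0.93 (SE 0.13, edgeR adjusted p = 4.45e-06). KCNH2 (chr7:150944961-150978321, minus strand), the channel of late cardiac repolarization known as hERG, went the other way within this family. It had 92.3, 91.1 and 89.5 normalized counts in GFP and 58.0, 54.4 and 65.7 in RBFOX1 libraries, a log2 fold change of -0.60 (SE 0.14, edgeR adjusted p = 0.00128). The remaining member of the family, KCNH8, had at most 7.31 normalized counts in any library and did not pass. In KCNH1, KCNH3 and KCNH2 the groups did not overlap.

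The A-type channel gene KCND1 (chrX:48961378-48971844, minus strand), which gives a fast transient current, had 26.1, 22.2 and 17.9 normalized counts in GFP and 61.7, 57.7 and 62.1 in RBFOX1 libraries. The RBFOX1 values were close together and far above any GFP value, with a log2 fold change of 1.41 (SE 0.19, edgeR adjusted p = 4.51e-06). Its relative KCND3 had 1, 1 and 0 counts in GFP and 1, 4 and 8 in RBFOX1 libraries, a ratio of 8.81 (95% exact interval 1.99 to 80.4) that covers counting error only. KCND3 passed (edgeR adjusted p = 0.00898) but not under DESeq2 (adjusted p = 0.0999). KCNC1, a fast channel of rapidly firing neurons, had no GFP count and 5, 14 and 6 counts in RBFOX1 libraries, which puts it at least 3.55-fold higher against a floor of 3 counts per GFP library (edgeR adjusted p = 8.99e-05).

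KCNC4, of the same family as KCNC1, had 39.5, 71.2 and 54.8 normalized counts in GFP and 41.7, 25.5 and 22.8 in RBFOX1 libraries. Its groups overlapped, since RBFOX1 replicate 1 lay above GFP replicate 1, and its log2 fold change of -0.90 (SE 0.25, edgeR adjusted p = 0.00569) lost the call without RBFOX1 replicate 3 (adjusted p = 0.0617). KCNAB2 (chr1:5990927-6101193, plus strand), a cytoplasmic beta subunit with an aldo-keto reductase fold, fell without overlap. It had 164, 163 and 179 normalized counts in GFP and 81.6, 79.9 and 69.4 in RBFOX1 libraries, a log2 fold change of -1.15 (SE 0.12, edgeR adjusted p = 1.1e-07). The other beta subunits, KCNAB1 and KCNAB3, did not pass, with log2 fold changes of -0.15 (SE 0.39) and 0.35 (SE 0.28).

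KCNE4, a small auxiliary subunit that inhibits several channels, had 11, 3 and 2 counts in GFP and 12, 18 and 29 in RBFOX1 libraries, a log2 fold change of 2.30 (SE 0.38, edgeR adjusted p = 3.68e-05). Without GFP replicate 1, which held most of its GFP counts, that value was 2.9999. Silent subunits form no channel on their own and change the gating of partner subunits. KCNG1 (chr20:51003656-51023107, minus strand), the one with the highest level per kb in both groups, had 197, 232 and 197 normalized counts in GFP and 181, 167 and 199.98 in RBFOX1 libraries. The groups overlapped and it did not pass, with a log2 fold change of -0.18 (SE 0.10, edgeR adjusted p = 0.183). KCNG3 passed narrowly, with 37.6, 30.4 and 35.8 against 41.7, 47.7 and 54.8 normalized counts and a log2 fold change of 0.48 (SE 0.19, edgeR adjusted p = 0.0391). That call held in only 5 of 13 other fits and was lost without GFP replicate 2 or 3 and without RBFOX1 replicate 2 or 3.

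The voltage-gated members that did not pass also included KCNA4, KCNE1 and KCNF1, whose mean normalized counts were at most 7.92 in either group. KCNAB3 was above GFP in every RBFOX1 library without passing.

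**Figure D3:**
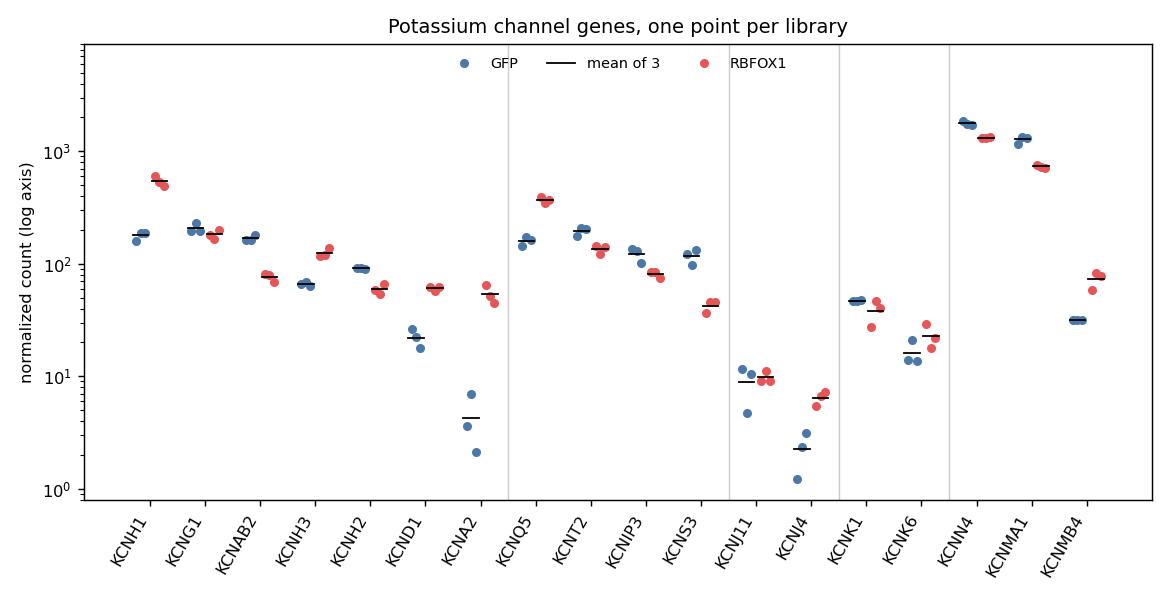
Normalized count (y axis, log scale) of the channel genes that changed without overlap at a mean of at least 20 (up to 6 per group by size of change) or that were among the most abundant of their group, with 1 point per library (blue GFP, red RBFOX1) and a bar at the mean of 3. Grey lines divide the channel groups, and KCNN4 and KCNMA1 stand above the other genes in every library.

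Of the 11 genes outside these classes, 3 were higher, 3 lower and 5 did not pass. KCNQ5 (chr6:72621792-73198853, plus strand), a channel of the M-current that steadies the resting voltage of neurons, had 143, 173 and 163 normalized counts in GFP and 395, 345 and 368 in RBFOX1 libraries. Every RBFOX1 value was far above the GFP values, with a log2 fold change of 1.22 (SE 0.094, edgeR adjusted p = 1.35e-09). KCNQ1, of the same family, did not pass, with a log2 fold change of -0.09 (SE 0.27).

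The silent subunit KCNS3 (chr2:17877847-18361616, plus strand) had the largest fall among members with a mean of at least 20. Its normalized counts were 123, 96.9 and 134 in GFP and 36.3, 45.5 and 45.7 in RBFOX1 libraries, a log2 fold change of -1.45 (SE 0.16, edgeR adjusted p = 2.35e-07), and the lowest GFP value was far above the highest RBFOX1 value. KCNIP3 (chr2:95297327-95386077, plus strand), a calcium-binding protein that binds A-type channels, had 137, 129.6 and 102 normalized counts in GFP and 85.3, 84.4 and 74.9 in RBFOX1 libraries, a log2 fold change of -0.62 (SE 0.14, edgeR adjusted p = 0.000881). KCNIP1, of the same family, had no GFP count and 6, 4 and 7 counts in RBFOX1 libraries, at least 2.56-fold higher against the floor (edgeR adjusted p = 0.000333). KCNIP2 did not pass, with a log2 fold change of -0.12 (SE 0.30).

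The sodium-activated channels also split. KCNT2 (chr1:196225779-196609225, minus strand) had 176, 210.2 and 204 normalized counts in GFP and 143, 123 and 139.7 in RBFOX1 libraries, a log2 fold change of -0.53 (SE 0.11, edgeR adjusted p = 0.000447). KCNT1 had 1, 1 and 0 counts in GFP and 5, 9 and 9 in RBFOX1 libraries, a ratio of 15.6 (95% exact interval 3.85 to 136) with edgeR adjusted p = 0.000179. In RBFOX1 cells the level of KCNT2 was still 18.8 (range 17.1 to 19.9) per kb against 0.583 (range 0.527 to 0.641) for KCNT1. KCNU1, a sperm channel, and KCNRG, a regulator that shares 66.8% of its exon length with TRIM13 on the same strand, did not pass.

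Of the 6 calcium-activated genes 1 was higher, 2 were lower and 3 did not pass. KCNN4 (chr19:43766533-43780976, minus strand), which opens on calcium without need of voltage, had 1851, 1753 and 1723 normalized counts in GFP and 1311, 1319 and 1332 in RBFOX1 libraries. The RBFOX1 values agreed closely and lay below every GFP value, with a log2 fold change of -0.43 (SE 0.052, edgeR adjusted p = 8.43e-07). KCNMA1 (chr10:76869601-77638369, minus strand), the pore subunit of the large-conductance BK channel, had 1169, 1349 and 1308 normalized counts in GFP and 762, 733 and 709.5 in RBFOX1 libraries, a log2 fold change of -0.79 (SE 0.064, edgeR adjusted p = 2.84e-09). The lowest GFP value was well above the highest RBFOX1 value.

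KCNMB4 (chr12:70366290-70434292, plus strand), the BK beta subunit found mainly in neurons, moved opposite to the pore gene. Its normalized counts were 31.6, 31.5 and 31.6 in GFP and 58.0, 82.2 and 78.5 in RBFOX1 libraries. The GFP values were nearly equal and the RBFOX1 values were all higher, with a log2 fold change of 1.24 (SE 0.18, edgeR adjusted p = 6.59e-06). The small-conductance channels KCNN1 and KCNN3 and the beta subunit KCNMB3 did not pass, with log2 fold changes of 0.31 (SE 0.39), -0.20 (SE 0.24) and -0.25 (SE 0.16). KCNMB3 shares 38.0% of its exon length with PIK3CA on the opposite strand. The libraries were stranded, and whether PIK3CA reads enter the KCNMB3 count was not tested.

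**Figure D4:**
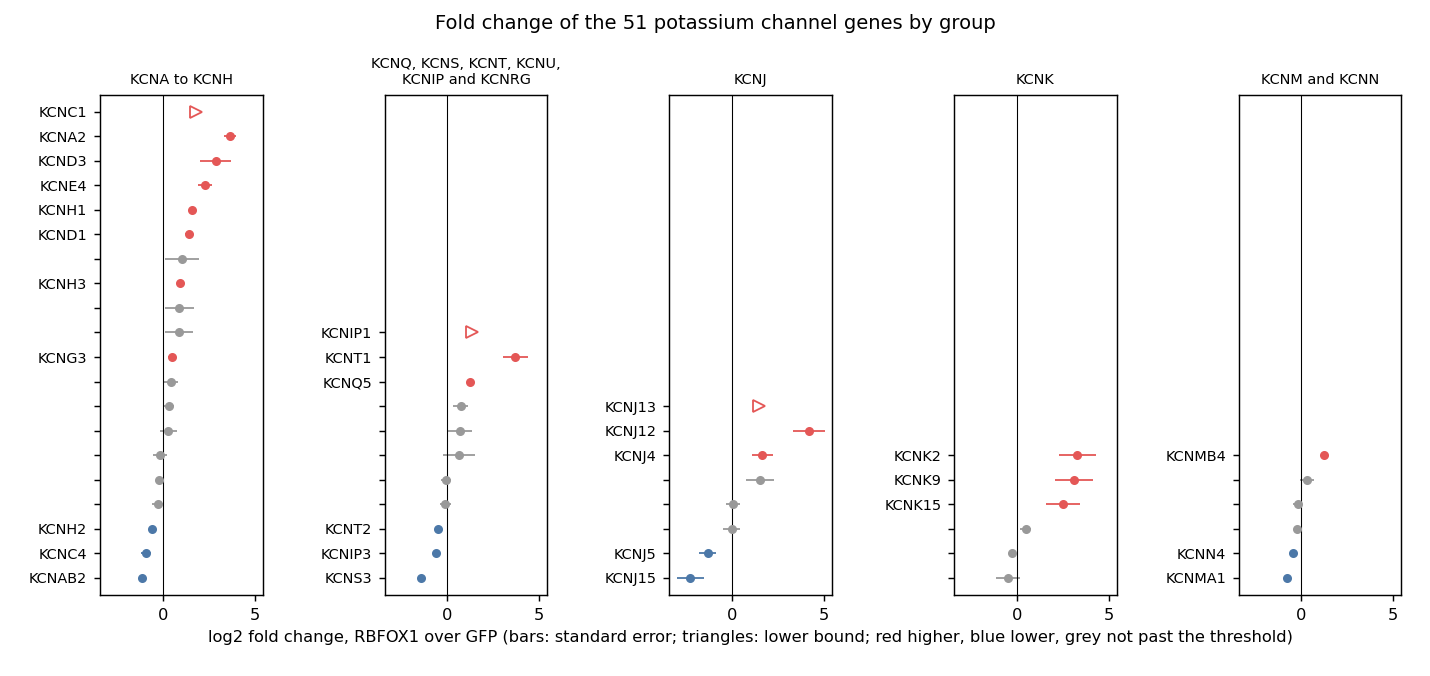
Log2 fold change of RBFOX1 over GFP (x axis) for each of the 51 genes, 1 panel per channel group, with names beside the genes that passed, bars for the standard error and open triangles for the lower bound of the 3 genes with no GFP count. Red points were higher (18), blue lower (10) and grey did not pass (23), and each group other than KCNK holds both red and blue points.

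The inward rectifiers were low throughout: 3 were higher, 2 lower and 3 did not pass, and none had a mean above 10 in either group. KCNJ12, a strong inward rectifier, had 0, 0 and 1 counts in GFP and 4, 8 and 7 in RBFOX1 libraries, a ratio of 25.8 (95% exact interval 4.09 to 1070.2). It passed (edgeR adjusted p = 0.000375), and its fitted log2 fold change of 4.19 became 3.45 without GFP replicate 1 and 5.94 without GFP replicate 3. Its near-identical copy KCNJ18 was at 0 in all libraries, and reads that match both genes make the value uncertain. KCNJ13, of epithelia such as the retinal pigment layer, had no GFP count and 4, 9 and 7 counts in RBFOX1 libraries, at least 2.79-fold higher against the floor (edgeR adjusted p = 0.000109). KCNJ13 shares 22.3% of its exon length with GIGYF2 on the opposite strand and 7.5% with a noncoding gene on the same strand. Whether their reads enter the KCNJ13 count was not tested.

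KCNJ4, another strong inward rectifier of brain, had 1.21, 2.34 and 3.16 normalized counts in GFP and 5.44, 6.66 and 7.31 in RBFOX1 libraries. The groups did not overlap, with a log2 fold change of 1.65 (SE 0.58, edgeR adjusted p = 0.0258), but the call was lost without GFP replicate 1 (adjusted p = 0.136), without RBFOX1 replicate 2 (0.0572) and without RBFOX1 replicate 3 (0.0889), and with the replicate number as a block (0.0727). Under DESeq2 the KCNJ4 call was lost as well (adjusted p = 0.197). KCNJ15 fell from 7, 6 and 8 counts to 0, 1 and 2 counts, a ratio of 0.194 (95% exact interval 0.0370 to 0.649) with edgeR adjusted p = 0.0143. Its fitted log2 fold change of -2.27 became -2.94 without RBFOX1 replicate 3, and it did not pass under DESeq2 (adjusted p = 0.0915). KCNJ5, a channel opened by G proteins, had 8.50, 10.5 and 8.43 against 3.63, 3.33 and 3.65 normalized counts and a log2 fold change of -1.32 (SE 0.47, edgeR adjusted p = 0.0261). That call was lost without GFP replicate 2, RBFOX1 replicate 2 or RBFOX1 replicate 3 and under DESeq2 (adjusted p = 0.194).

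KCNJ11, the pore of ATP-sensitive channels, had 11.5, 4.67 and 10.5 normalized counts in GFP and 9.07, 11.1 and 9.13 in RBFOX1 libraries. The groups overlapped, with a log2 fold change of 0.05 (SE 0.39, edgeR adjusted p = 0.932), and the sign turned when replicate 2 of either group was left out. KCNJ3 and KCNJ14 also did not pass. KCNJ10, the main inward rectifier of astrocytes, was among the genes with fewer than 10 counts.

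In the tandem-pore group 3 genes were higher, none was lower and 3 did not pass, but each of the 3 rises rested on at most 2 GFP counts. KCNK2, a channel opened by stretch and lipids, had 0, 1 and 0 counts in GFP and 3, 3 and 4 in RBFOX1 libraries, a ratio of 13.6 (95% exact interval 1.93 to 588) with edgeR adjusted p = 0.0106. KCNK9, an acid-sensitive leak channel, had 0, 0 and 1 and 3, 3 and 3 counts, a ratio of 12.2 (95% exact interval 1.69 to 535) with edgeR adjusted p = 0.0166. Both calls were lost without GFP replicate 1 (log2 fold change 2.55 in place of 3.29 and adjusted p = 0.0613 for KCNK2, 2.41 in place of 3.15 and 0.0862 for KCNK9) and under DESeq2 (0.0633 and 0.0822). KCNK15 had 2, 0 and 0 against 2, 2 and 6 counts, a ratio of 6.78 (95% exact interval 1.44 to 63.6) with edgeR adjusted p = 0.0299. It lost the call without GFP replicate 2 or 3 and under DESeq2 (adjusted p = 0.161). KCNK15 shares 20.1% of its exon length with RIMS4 on the opposite strand, and whether RIMS4 reads enter its count was not tested. Without the library that held the GFP counts, the fitted log2 fold change rose from 3.29 to 5.06 for KCNK2 (GFP replicate 2) and from 2.53 to 4.82 for KCNK15 (GFP replicate 1).

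The better-measured members of that group did not pass. KCNK1 (chr1:233614106-233672514, plus strand), a weakly conducting channel of brain and kidney, had 46.7, 46.7 and 47.4 normalized counts in GFP and 27.2, 46.6 and 40.2 in RBFOX1 libraries. Each RBFOX1 value was below each GFP value, the nearest by a small margin, and the log2 fold change of -0.25 (SE 0.19, edgeR adjusted p = 0.312) missed the threshold. KCNK6 had 13.96, 21.0 and 13.7 against 29.0, 17.8 and 21.9 normalized counts, overlapping, with a log2 fold change of 0.49 (SE 0.28, edgeR adjusted p = 0.179). KCNK3 had at most 7.26 in any library.

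The limit of 10 counts decided which low genes were included. KCNK9 with 10 summed counts and KCNK2 with 11 lay just inside it. KCNH5 with 0, 1 and 0 counts in GFP and 0, 2 and 4 in RBFOX1 libraries and KCNK12 with 1, 1 and 3 and 1, 0 and 1 lay just outside, each with 7.

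Genes that set or share the potassium gradient were taken from a list of 43 pumps, cotransporters, their kinases, channel partner proteins and other cation channels, of which 30 were tested. Of these 30, 11 were higher, 11 lower and 8 did not pass, so that 73.3% passed, against 46.6% of all genes, 59.1% of protein-coding genes and 61.0% of genes with a mean of at least 20. The list was chosen with earlier results of these data known, so this share only describes it. The count that passed was 22, against 14 without RBFOX1 replicate 2 and 13 under DESeq2. The sodium pump (Na,K-ATPase) and its FXYD regulators had 7 genes higher and 2 lower of 10. Among the 7, FXYD7 (no GFP count), FXYD3 (2, 1 and 1 GFP counts) and ATP1B2 (4, 2 and 1) reached the limit of 10 only through RBFOX1 libraries. Part of that count was therefore fixed by the limit and gives no direction for the pump.

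FXYD6, a small regulator of the pump, had 46.7, 42.0 and 44.2 normalized counts in GFP and 114, 98.8 and 92.2 in RBFOX1 libraries, a log2 fold change of 1.16 (SE 0.15, edgeR adjusted p = 1.73e-06). FXYD7, a regulator of the pump in brain, had no GFP count and 3, 8 and 8 counts in RBFOX1 libraries, at least 2.55-fold higher against the floor (edgeR adjusted p = 0.000135). The cation-chloride cotransporters had 2 genes lower and none higher of 6. SLC12A2 and SLC12A3 (the latter with 10 summed counts) lay wholly above GFP but narrowly missed the threshold (edgeR adjusted p = 0.0503 and 0.0545). SLC12A7, which carries potassium and chloride out of the cell, had 515, 571 and 644 normalized counts in GFP and 415, 336 and 349.7 in RBFOX1 libraries, a log2 fold change of -0.66 (SE 0.091, edgeR adjusted p = 4.69e-06).

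Of the 6 kinases that control these cotransporters, 2 were higher and 2 lower, and in the 2 lower ones (WNK1 and WNK4) the groups overlapped. WNK3 had 257, 252 and 263 normalized counts in GFP and 381, 373 and 349.7 in RBFOX1 libraries, a log2 fold change of 0.51 (SE 0.079, edgeR adjusted p = 1.95e-05). The 6 tested HCN and organelle cation channels had 1 gene higher and 4 lower. TMEM175, a lysosomal potassium channel, had 163, 171.7 and 149 normalized counts in GFP and 270.3, 239.8 and 250.2 in RBFOX1 libraries, a log2 fold change of 0.65 (SE 0.095, edgeR adjusted p = 1.04e-05). TMEM38B, a cation channel of the endoplasmic reticulum, had 531, 486 and 513 against 314, 345 and 371, a log2 fold change of -0.56 (SE 0.077, edgeR adjusted p = 4.37e-06). For FXYD6, SLC12A7, WNK3, TMEM175 and TMEM38B the groups did not overlap. Only 2 of 10 channel partner proteins were tested: AMIGO1, which binds delayed rectifiers, was higher, with a log2 fold change of 1.23 (SE 0.38, edgeR adjusted p = 0.011), and NCS1, a calcium sensor, was lower, with a log2 fold change of -0.24 (SE 0.055, edgeR adjusted p = 0.00132).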

How the data were processed

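RNA from A172 cells carrying GFP or RBFOX1 (3 libraries each) was rRNA-depleted and sequenced as stranded 100 bp paired-end libraries. Alignment by the authors used HISAT2 and GRCh38. HTSeq-count (intersection-strict, an Ensembl annotation) then gave the raw counts per gene and library that they deposited, with replicates not pooled. Tool versions are not given in the sources used here. A deposited DESeq2 table of the authors' own comparison (mean, log2 fold change, standard error, statistic, p and adjusted p) was not used.

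The 5 summary lines per library were left out. Per the deposited counts, 52.0 to 61.9% of reads fell on a gene, 6.61 to 8.74% on none and 6.89 to 9.35% were ambiguous. Symbols, positions and lengths came from GENCODE release 44, a later annotation, which held 98.1% of 58051 identifiers. Counts were tested with edgeR 4.0.16 (R 4.3.3): TMM, quasi-likelihood test, two-sided, condition only, Benjamini-Hochberg adjustment over the 20536 genes with at least 10 summed counts, threshold 0.05. SE is the log2 fold change over the square root of F. A floor of 3 counts per library bounds folds against groups at 0, and ratios with 1 to 3 counts in a group carry a 95% Clopper-Pearson interval, both for counting error only. In the shallowest library 3 counts were 5.44 normalized counts. Alternatives were DESeq2 1.42.0, limma-voom 3.58.1, other scalings and filters, a replicate block, stricter thresholds and the omission of each library. Replicates differed by more than sampling noise (chi-square per degree of freedom at least 1.61). The test was checked on simulated data in which only well-counted genes were changed, so the check does not cover the low members.

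Per-library values were given for members past the threshold with a mean of at least 20 and no overlap (up to 6 per group by size of change), the 2 with the highest level per kb in each group, 2 members on each side of the count limit and up to 6 partner genes by the first rule. Others named were chosen after their values were seen. Some genes that the rule or the lists hold are counted but not reported by name here. Members, lists and tests were chosen with earlier results of these data known.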

Additional observations from a re-analysis of the deposited data

How the results depend on the processing

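Of the 28 potassium channel genes that passed, 19 passed in each of the 13 other fits that gave them a value, 9 lost the call in at least 1 (KCNG3, KCNC4, KCND3, KCNJ4, KCNJ5, KCNJ15, KCNK2, KCNK9 and KCNK15), and KCNJ3 gained it in 2. The count was 16 (8 higher, 8 lower) of 27 tested under edgeR's stricter filterByExpr, 20 (12 higher, 8 lower) under DESeq2, and 21 to 26 when single libraries were left out. The median log2 fold change of the members was -0.13 under filterByExpr, which removes low genes, and 0.22 to 0.44 without single libraries. Of the 22 partner genes, 13 passed under DESeq2, 13 at an adjusted p under 0.01, 7 when a 2-fold change was also required and 14 to 20 without single libraries; the cause was not tested. KCNJ11, which never passed, had a log2 fold change of 0.05 with all libraries, -0.19 without GFP replicate 2, -0.05 without RBFOX1 replicate 2 and up to 0.34 without GFP replicate 1. The labels do not say whether replicate numbers pair the samples. Same-numbered libraries had deviations from their group mean correlated at -0.06, 0.01 and -0.02 across genes, and differently numbered ones at -0.05 to 0.08. These values cannot exclude a shared batch. With the replicate number as a block, 26 channel genes passed (16 higher, 10 lower) and 17 partner genes, the channel median was 0.48 and the log2 fold change of RBFOX1 was 13.55. Depth limits the low genes: in the shallowest library 3 counts were worth 5.44 normalized counts.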
